A study of Mus musculus with 8 samples.

Results

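Glycine is the second fast inhibitory transmitter of the retina beside GABA, and it is released mainly by amacrine cells with small dendritic fields. At a glycinergic synapse, a vesicular transporter loads glycine into vesicles, receptors on the target cell open a chloride channel, and a plasma membrane transporter takes glycine back up. The glycine receptor is a pentamer of alpha and beta subunits, and the beta subunit ties it to gephyrin, the scaffold under inhibitory synapses. The 7 genes described here are the glycine transporters Slc6a9 (GlyT1) and Slc6a5 (GlyT2), the alpha subunits Glra1, Glra2 and Glra3, the beta subunit Glrb, and the gephyrin gene Gphn. They were chosen by gene symbol, and all 7 were found among the 17500 genes of the table. All 7 passed the filter on low counts, as did 16797 genes in total.

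RNA from the whole retina of 8 mice was sequenced, 1 library each. There were 4 control mice (M833, M894, M896 and M898) and 4 mice with an induced deletion in Rbfox2 (M893, M901, M902 and M909). Rbfox2 is an RNA-binding splicing factor. Its floxed exons were removed by a tamoxifen-dependent Cre that is active in many tissues. Within the retina, the study cites Cre reporter signal in ganglion cells, amacrine cells and sparse cells of the inner nuclear layer. Its own staining of knockouts showed few Rbfox2-positive cells left in the ganglion cell layer. The loss was more modest in amacrine cells of the inner nuclear layer and complete in horizontal cells. Nearly all Rbfox2-positive amacrine cells were described as GABAergic. The rare vGlut3-positive amacrine cells of the inner nuclear layer were also Rbfox2-positive. The study describes vGlut3 as expressed in sparse glycinergic amacrine cells. The knockout retinas (labelled Rbfox2 KD, written Rbfox2-/- here) were from mice with both alleles floxed. The controls were Rbfox2 fl/+ heterozygotes, and no Cre is stated for them. All 8 mice are labelled as C57BL/6J, 6 months old and tamoxifen treated, with 4 months given as the time. The study's methods describe tamoxifen for the knockouts alone, as a short course on consecutive days, so the 4 months are the time since dosing. If the controls had no Cre or no tamoxifen, effects of these cannot be told apart from the loss of Rbfox2.

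The libraries held 160630226 to 211283591 counts. Levels are given as CPM (counts scaled to 1e6 per library) after TMM scaling, which adjusts for library composition, and levels that are compared between genes are given as the deposited FPKM, which divides by gene length. Rbfox2 was 53.6 to 59.4 CPM in the Rbfox2-/- retinas and 144 to 157 CPM in the controls. Its counts over the whole gene were thus reduced and not absent in the knockouts. They do not separate intact transcripts from transcripts without the floxed exons. Xist, the X-inactivation RNA, was 1440 and 1739 CPM in M901 and M902 and 1.71 to 2.22 CPM in the other mice, so 2 of the 4 knockouts and no control carried it, and results were also computed without them. Gnat1, the transducin alpha subunit of rods, was 13082 to 16715 CPM, and none of 3 Hox genes that mark hindbrain or spinal cord (Hoxb2, Hoxb3, Hoxa5) was in the table. Every pair of libraries differed by more than counting noise, with a chi-square per degree of freedom of at least 34.1 over 15235 genes.

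Rbfox proteins bind the RNA element UGCAUG, written TGCATG in DNA letters. The spliced transcripts of the 7 genes were searched on the sense strand for these letters, using for each gene the GENCODE M21 transcript (GRCm38) whose RefSeq accession matched the table. The element was found 7 times in 5 of the genes, and each occurrence is shown with 12 bases on either side to give the reader the element in place, with TGCATG in capitals.
Slc6a9, coding sequence: ttccctgggctgTGCATGgggtggcctcat
Slc6a5, coding sequence: aactctactttcTGCATGactgcctatccg
Glra2, 5′ UTR: accagcccccttTGCATGgtgatgcgatta
Glra3, 3′ UTR: cagtggggagcaTGCATGacatatatttac
Glra3, 3′ UTR: attaaaatgttcTGCATGgttttatcaatt
Gphn, coding sequence: aagtaaaggaggTGCATGatgaacttgaag
Gphn, 3′ UTR: agaaagttttgaTGCATGtccacatatcat
No TGCATG was found in the transcripts of Glra1 and Glrb. The Glra3 transcript had 6508 bases, against 1474 bases behind its deposited FPKM, and its sites began at bases 4312 and 6347. Across 13777 transcripts treated the same way, 53.5% held the element, at 0.283 sites per kb. Over the 7 transcripts together, those without a site included, the rate was 0.285 per kb. Introns, where many Rbfox elements lie, were not analysed here, and a match is a description of the letters and not evidence of binding.

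The receptor subunits are paralogs, so reads could in principle be shared between them. Over their coding sequences, the 3 alpha subunits were 71.1 to 74.3% identical in pairwise alignments. Glrb was 55 to 57.1% identical to each of them. The 60 bases where the alpha subunits were most alike had 50 bases in common, and 28 were common to these and Glrb. They are shown to give the closest case, with capitals at the positions where the alpha subunits differed from each other and, for Glrb, where it differed as well.
Glra1: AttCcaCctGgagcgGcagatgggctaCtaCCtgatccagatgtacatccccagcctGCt
Glra2: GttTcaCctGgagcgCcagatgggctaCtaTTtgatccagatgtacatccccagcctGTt
Glra3: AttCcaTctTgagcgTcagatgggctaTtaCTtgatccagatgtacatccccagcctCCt
Glrb: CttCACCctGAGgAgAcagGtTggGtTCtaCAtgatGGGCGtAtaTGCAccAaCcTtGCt
The longest exact run shared by any pair of the 4 was 26 bases, against reads of 150 bases.

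Slc6a9, Glra1 and Gphn lie over other annotated genes on the opposite strand, and the strand setting of the counting is not stated in the sources used here. Slc6a9 (ENSMUSG00000028542, GRCm38 chromosome 4, 117834506 to 117875198, plus strand) shares 1429 exonic bases with Ccdc24, 41.1% of its main transcript, 511 with Gm17114 and 46 with B4galt2. Glra1 (chromosome 11, 55514238 to 55608198, minus strand) shares 141 exonic bases with Gm12236, and Gphn (chromosome 12, 78226379 to 78684772, plus strand) shares 147 with Gm48226. How reads from these stretches were assigned is therefore not known, and the Slc6a9 values below carry that uncertainty. The other members lie on chromosome 7 (Slc6a5, 49910146 to 49963856), chromosome X (Glra2, 165129017 to 165327393), chromosome 8 (Glra3, 55940460 to 56130070) and chromosome 3 (Glrb, 80843599 to 80913660).

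How abundant each gene was in the retina was asked first. Slc6a9 was by far the most abundant of the 7, at 83.1 ± 3.62 FPKM (SD over all 8 mice), rank 617 of the 17500 genes. Glrb followed at 23.2 ± 1.01 FPKM and Gphn at 19.3 ± 0.465 FPKM. Among the alpha subunits, Glra1 was 10.4 ± 0.557, Glra3 9.91 ± 0.663 and Glra2 6.48 ± 0.403 FPKM. Slc6a5, the transporter known from glycinergic neurons of brainstem and spinal cord, was lowest at 5.08 ± 0.499 FPKM. The order from Slc6a9 to Glrb to Gphn to Glra1 held in each of the 8 mice. Glra1 exceeded Glra3 in 6 of 8 mice, and these neighbours did not differ beyond their spread. Glra2 exceeded Slc6a5 in 7 of 8 mice, the exception being M833 (5.87 and 5.91 FPKM).

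**Figure D1:**
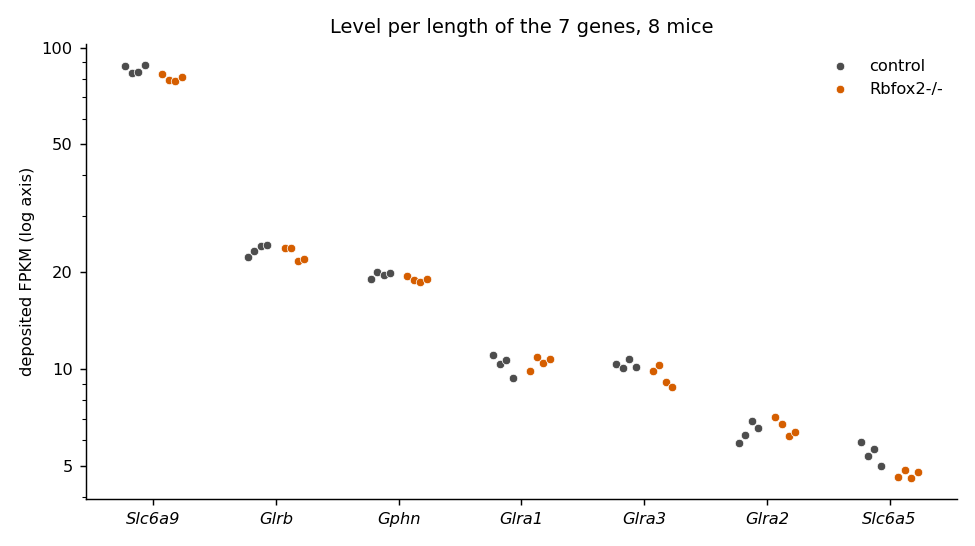
Level per length of the 7 genes in each of the 8 mice. The vertical axis is the deposited FPKM on a log axis, each point is 1 mouse, and grey marks controls and orange Rbfox2-/- retinas. Slc6a9 stands above the rest at 78.6 to 88.5 FPKM, the points of Glra1 and Glra3 overlap, and the ranges of Glra2 and Slc6a5 just meet.

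The length behind a level per length matters here. The deposited FPKM of Glra3 used 1474 bases, close to its coding sequence of 1443 bases, whereas the merged exons of the GENCODE gene cover 9208 bases. With counts divided by merged exons, Glra3 was the lowest of the 7, at 1.59 counts per kb of exon per 1e6 counts, and Slc6a5 was 1.80. Whether reads were counted over all 9208 bases is not known. If they were counted over 1474 bases only, this value of Glra3 is too low. Gphn, at 17.0, then stood above Glrb, at 14.8. Slc6a9 was the highest on either length (52.9 with merged exons).

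In the comparison of Rbfox2-/- with control retinas, the 7 genes differed little. None of 7 passed the threshold of an adjusted p of 0.05 (quasi-likelihood test of edgeR, Benjamini-Hochberg adjusted over 16797 genes), where 0.0655% of all genes did (11 genes, 0.0357% higher and 0.0298% lower). None passed with DESeq2, the likelihood ratio test of edgeR or limma-voom either. At an unadjusted p under 0.05 stood 1 of 7 members, Slc6a5, which was lower, and 13.3% of all genes, 6.42% higher and 6.87% lower. Of the 7, 5 had a log2 fold change below 0, as did 49.3% of all genes. The member median was -0.03, and the median of all genes was 0.0016. The groups did not overlap for 3 of 7 members (Slc6a9, Slc6a5 and Gphn, each lower in the knockouts), where 7.03% of all genes did not overlap, 3.64% with the knockouts higher and 3.39% with the knockouts lower. This count rests on the scaling, being 3 with TMM or RLE factors, 2 with library totals and 1 with upper-quartile factors. Slc6a5 alone was apart under each of these 4 scalings.

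**Figure D2:**
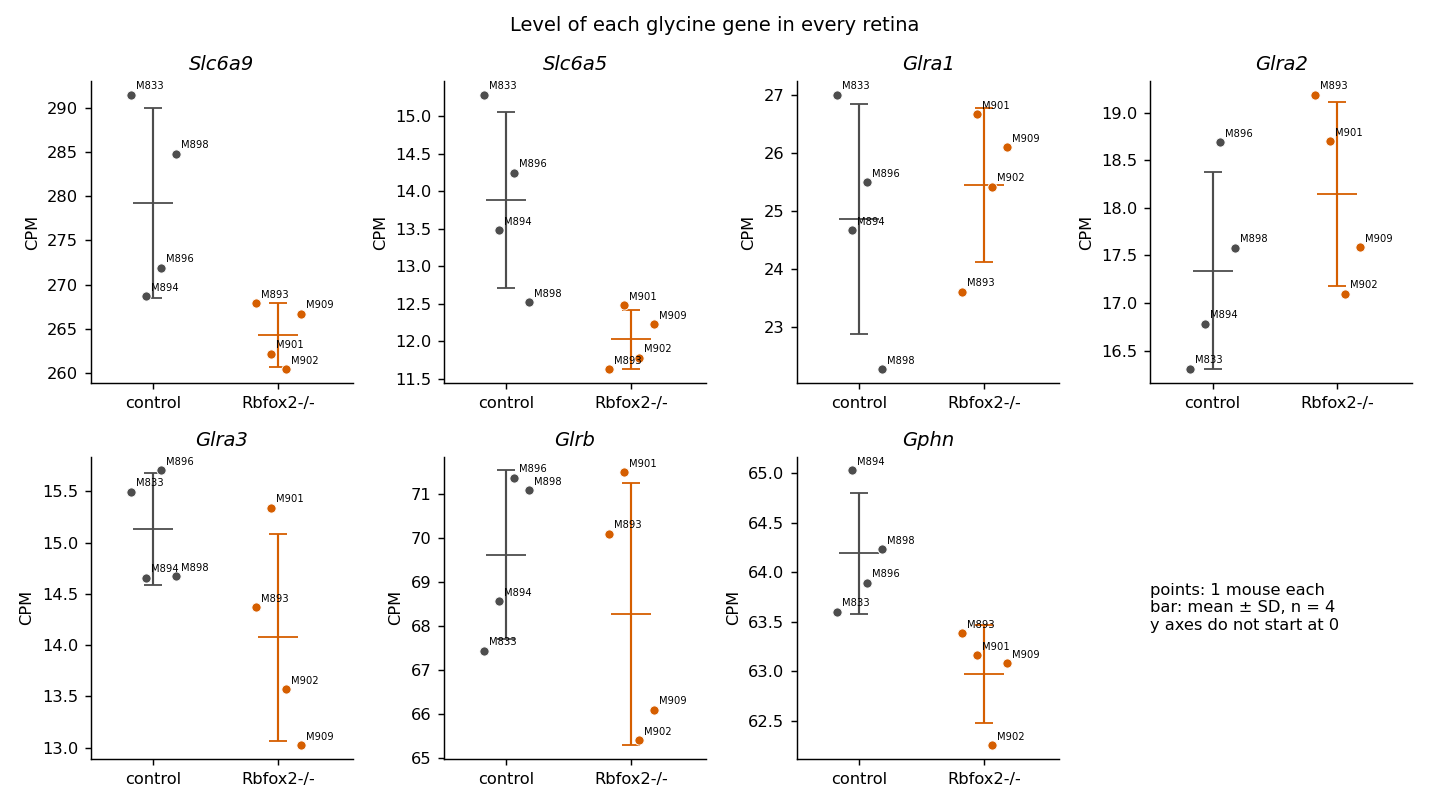
CPM of each of the 7 genes in every retina. Points are single mice, the horizontal bar is the group mean and the whisker the SD (n = 4 mice), and the vertical axes do not start at 0. The groups are apart by a narrow margin for Slc6a9, Slc6a5 and Gphn and overlap for Glra1, Glra2, Glra3 and Glrb.

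Slc6a9 clears glycine around glycinergic amacrine cells, and it is a common marker of them. In the controls it was 291 (M833), 269 (M894), 272 (M896) and 285 CPM (M898). In the Rbfox2-/- retinas it was 268 (M893), 262 (M901), 260 (M902) and 267 CPM (M909). Each knockout lay below each control, but M893 and M894, the nearest pair, were almost level. The mean was 264 ± 3.59 against 279 ± 10.7 CPM (SD, n = 4 in each group). The log2 fold change was -0.08 ± 0.04 (SE), with a 95% interval of -0.16 to 0.0013 and an adjusted p of 0.383 (edgeR's quasi-likelihood test). The fold of knockout over control was 0.947, and its interval ran from 0.895 to 1.001. Ccdc24, whose exons overlap it on the other strand, was 92.4 to 120 CPM in controls and 113 to 133 CPM in knockouts, a log2 fold change of 0.20 ± 0.08 (SE) with an adjusted p of 0.344.

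Slc6a5 refills the terminals of glycinergic neurons. It had 1869 to 3182 counts per library. Its level was 15.3 (M833), 13.5 (M894), 14.2 (M896) and 12.5 CPM (M898) in the controls. The knockouts had 11.6 (M893), 12.5 (M901), 11.8 (M902) and 12.2 CPM (M909). Each knockout was below each control, although M901 and M898 were nearly level at 12.48 and 12.52 CPM. The log2 fold change was -0.21 ± 0.07 (SE), a fold of 0.866 with a 95% interval of 0.783 to 0.958. This was the largest difference of the 7, and it did not pass over all genes (adjusted p of 0.257, quasi-likelihood test of edgeR, Benjamini-Hochberg adjusted). Across the alternatives its adjusted p ran from 0.0872 with DESeq2 to 0.782. In each mouse Slc6a9 was 14.9 to 17.96 times Slc6a5 on the FPKM scale, 14.9 to 17.7 in controls and 16.4 to 17.96 in knockouts, with overlap between the groups. With merged exon lengths the ratio was 26.7 to 32.3.

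The alpha subunits form the channel and carry the glycine binding sites. Glra1, the adult subunit at many fast synapses, was 27.0, 24.7, 25.5 and 22.3 CPM in the controls (in the order M833, M894, M896, M898) and 23.6, 26.7, 25.4 and 26.1 CPM in the knockouts (M893, M901, M902, M909). The groups overlapped, with the highest and the lowest mouse both controls. Its log2 fold change was 0.03 ± 0.06 (SE), and the 95% interval of the fold was 0.927 to 1.13. Without M901 and M902 the value was -0.0028, so its sign was not fixed.

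Glra2, an X-linked subunit that is prominent before maturity, was 16.3, 16.8, 18.7 and 17.6 CPM in the controls and 19.2, 18.7, 17.1 and 17.6 CPM in the knockouts, in the same order of mice. Knockouts and controls overlapped over most of their range. In log2 terms the difference was 0.07 ± 0.06 (SE), with a fold interval of 0.956 to 1.15. M901 and M902, the mice with Xist, lay inside the range of the others.

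Glra3 was 15.5, 14.7, 15.7 and 14.7 CPM in the controls and 14.4, 15.3, 13.6 and 13.0 CPM in the knockouts. M893, M902 and M909 lay below each control, and M901 lay among the controls. The log2 fold change was -0.10 ± 0.06 (SE), the adjusted p was 0.483 in edgeR's quasi-likelihood test, and the fold interval was 0.848 to 1.02.

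The alpha subunits were also set against each other within each mouse. Among Glra1, Glra2, Glra3 and Glra4 on the FPKM scale, Glra3 made up 35.6, 35.1, 35.2 and 35.9% in the controls and 33.5, 33.9, 32.7 and 31.9% in the knockouts. The groups did not overlap, and the means were 35.4 ± 0.365 and 33.0 ± 0.914% (SD, n = 4 in each group). With merged exon lengths the shares were 8.58 to 8.90% and 7.45 to 8.20%, again without overlap. Glra1 was 33.3 to 37.9% in controls and 33.6 to 39.0% in knockouts, Glra2 20.2 to 23.1% and 22.2 to 24.1%, and Glra4 6.40 to 7.69% and 6.00 to 8.90%, each with overlap. These shares were computed after the members' values were known and are a description without a test. Shares of one total move together, and the Glra3 level itself did not pass.

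**Figure D3:**
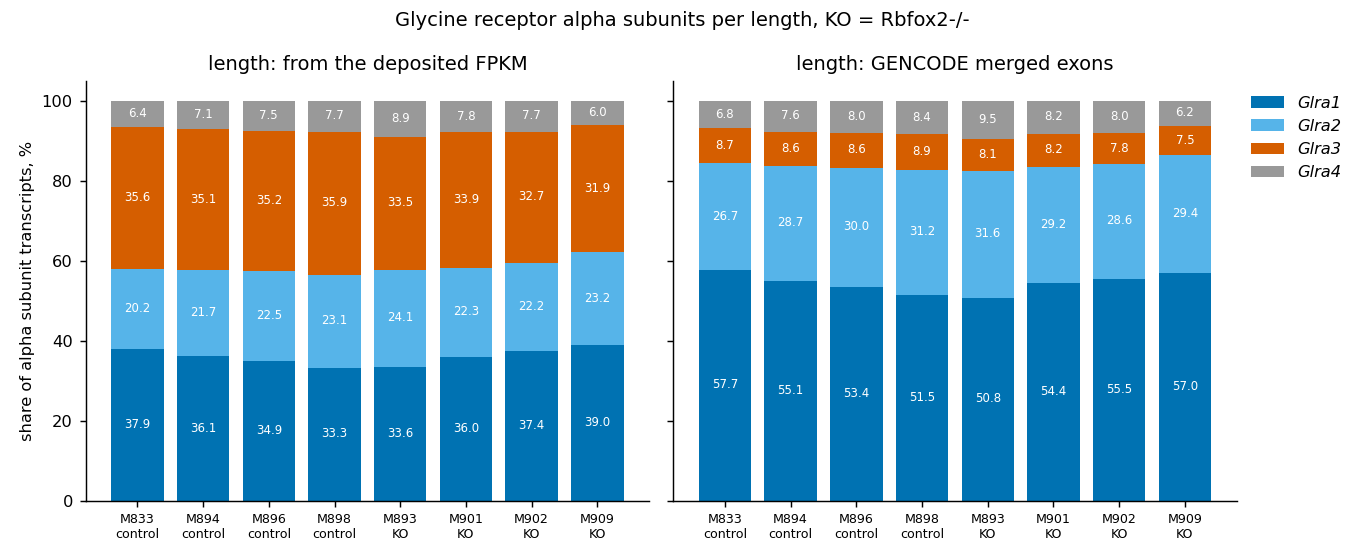
Share of each alpha subunit among Glra1 to Glra4 in each mouse, in percent of their summed level per length. The left panel uses the deposited FPKM and the right panel counts per kb of GENCODE merged exons, and each bar is 1 mouse (KO, Rbfox2-/-). Glra3 takes 35.1 to 35.9% in controls and 31.9 to 33.9% in knockouts on the left, and its share depends more on the length used than on the group.

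Glrb, the subunit that binds gephyrin, was 67.4, 68.6, 71.4 and 71.1 CPM in the controls and 70.1, 71.5, 65.4 and 66.1 CPM in the knockouts. M902 and M909 were the lowest of the 8 and M901 the highest. The log2 fold change was -0.03 ± 0.04 (SE), and the fold interval was 0.922 to 1.04. Glrb was 0.766 to 0.860 of the summed alpha subunits in controls and 0.780 to 0.808 in knockouts, per length.

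Gphn, which also builds GABA receptor synapses and the molybdenum cofactor, was 63.6, 65.0, 63.9 and 64.2 CPM in the controls and 63.4, 63.2, 62.3 and 63.1 CPM in the knockouts. M833 and M893, the nearest pair, were at 63.60 and 63.39 CPM, and the groups overlapped with library totals or upper-quartile factors. The log2 fold change was -0.03 ± 0.03 (SE), an adjusted p of 0.720 in edgeR's quasi-likelihood test, and the interval of the fold was 0.938 to 1.03. It was the tightest of the 7 genes within a group, with coefficients of variation of 0.959% in controls and 0.787% in knockouts. The ratio of Gphn to Glrb per length was 0.836 ± 0.0321 in knockouts and 0.835 ± 0.0245 in controls (SD, n = 4). With merged exon lengths it was 1.147 and 1.145, so which of the genes was higher turned on the length.

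Because the whole retina was used, fewer cells of a type and less RNA per cell cannot be told apart. The sum of 6 genes listed as glycinergic amacrine markers (Slc6a9, Slc17a8, Dab1, Prox1, Ebf3, Gjd2) was 637 to 648 CPM in knockouts and 651 to 696 CPM in controls. Whether these genes were confined to such cells was not examined. How often sums of this kind stand apart was not computed. Without Slc6a9 the other 5 summed to 377 to 381 and 382 to 405 CPM, and 4 of the 5 had a log2 fold change below 0, with none past the threshold. The 4 general amacrine markers summed to 702 to 762 and 740 to 769 CPM, with 4 of 4 below 0 and none past the threshold. The sums overlapped for 5 GABAergic amacrine markers (1039 to 1128 in knockouts and 1070 to 1134 CPM in controls). They also overlapped for the bipolar and the ON bipolar markers. The 4 Muller glia markers (Rlbp1, Glul, Slc1a3, Aqp4) summed to 3787 to 3995 in knockouts and 4067 to 4390 CPM in controls. Of these, 2 of 4 had a log2 fold change below 0. A group of 3 rod markers (Gnat1, Pde6b, Nrl) summed to 19212 to 21004 in knockouts and 16972 to 18794 CPM in controls, and the 4 cone markers 773 to 895 and 691 to 725 CPM. The 4 ganglion cell markers (Rbpms, Pou4f1, Slc17a6, Nefl) summed to 495 to 657 and 381 to 639 CPM, and control M833 was the lowest of the 8 mice for each of them (Nefl 288 CPM, 375 to 505 in the others). M833 was also the highest mouse for Slc6a9, Slc6a5 and Glra1. Without M833 the log2 fold changes were -0.06 (Slc6a9), -0.16 (Slc6a5) and 0.07 (Glra1), and their adjusted p-values 0.401, 0.228 and 0.577 (edgeR). The part of these shifts in the values of Slc6a9 and Slc6a5 was not tested.

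The other genes of glycine handling were asked next, from a list of 30 that covers vesicle loading, synthesis, cleavage, further carriers, gephyrin partners and chloride carriers. Of these, 29 were in the table and tested. None of 29 passed the threshold in either direction with edgeR, 7 had an unadjusted p under 0.05 (4 higher, 3 lower, against 13.3% of all genes), and 16 lay above and 13 below 0. Their median log2 fold change was 0.01. DESeq2 called 2 of the 29, Shmt1 and Shmt2, and 2.77% of all genes.

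**Figure D4:**
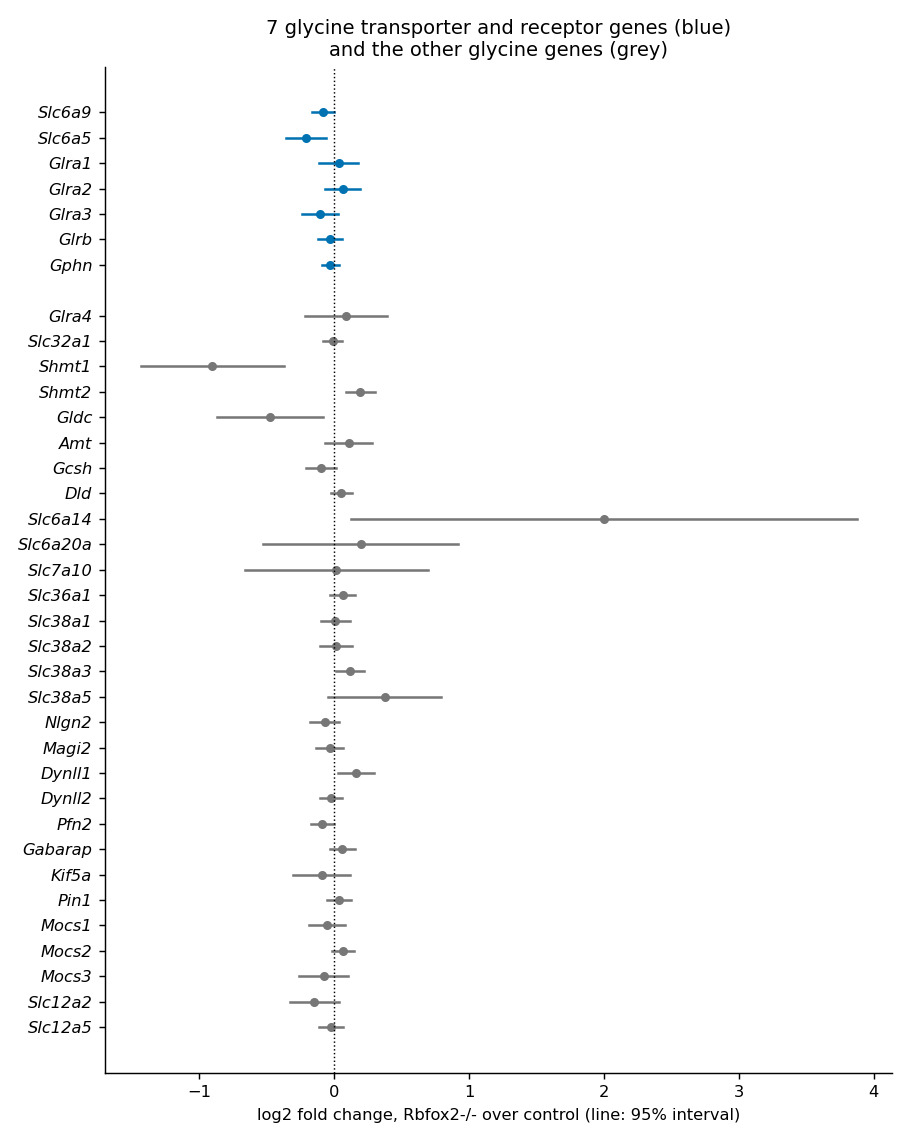
Log2 fold change of Rbfox2-/- over control for the 7 genes (blue) and the 29 other glycine genes tested (grey). The point is the edgeR estimate and the line its 95% interval. The 7 genes lie between -0.21 and 0.07, while Shmt1, Gldc and Slc6a14 lie farther out with wide intervals.

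The groups did not overlap for 4 of the 29 listed genes, where 7.03% of all genes did not overlap. Pfn2 was lower in the knockouts and Mocs2 higher. The others were both serine hydroxymethyltransferases, which make glycine from serine, in opposite directions. Shmt2, the mitochondrial enzyme, was 36.3, 37.6, 35.8 and 34.6 CPM in controls and 43.8, 42.4, 39.5 and 39.4 CPM in knockouts, so each knockout lay above each control. Its log2 fold change was 0.19 ± 0.05 (SE), with an adjusted p of 0.181 in edgeR's quasi-likelihood test and 0.013 in DESeq2. Shmt1, the cytosolic enzyme, was low, at 84 to 258 counts per library. It was 0.735, 1.23, 0.846 and 1.46 CPM in controls and 0.659, 0.436, 0.592 and 0.594 CPM in knockouts. Shmt1 had a log2 fold change of -0.90 ± 0.24 (SE), with an adjusted p of 0.207 in edgeR's quasi-likelihood test and 0.0247 in DESeq2.

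Gldc, the glycine decarboxylase of the cleavage system, was 57.3, 62.9, 55.6 and 79.1 CPM in controls. In the knockouts it was 57.2 (M893), 36.1 (M901), 35.0 (M902) and 55.4 CPM (M909). The low values were those of the mice with Xist, and the others lay at the lower edge of the controls. M901 and M902 also had the least Best2, a marker of ciliary tissue, at 0.150 and 0.208 CPM (4.14 to 16.0 CPM in the others). Rpe65, Best1, Tyr and Mitf, listed with Best2 for pigment epithelium and ciliary tissue, did not set both mice apart. The part of sex or of such tissue in the Gldc values was not tested. Gldc had a log2 fold change of -0.47 ± 0.18 (SE) with an adjusted p of 0.312 in edgeR's quasi-likelihood test, and -0.18 without M901 and M902. The other cleavage genes Amt, Gcsh and Dld had log2 fold changes of 0.11, -0.10 and 0.06.

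**Figure D5:**
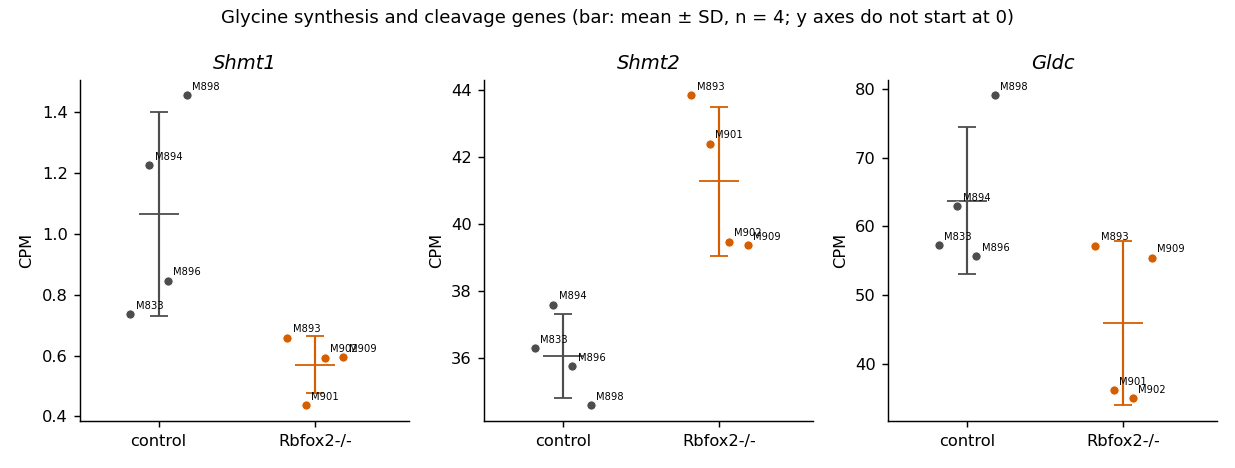
CPM of Shmt1, Shmt2 and Gldc in every retina. Points are single mice, with the mean and SD of each group (n = 4), and the vertical axes do not start at 0. Shmt2 is 34.6 to 37.6 CPM in controls and 39.4 to 43.8 CPM in knockouts, Shmt1 is apart the other way, and the low Gldc values are M901 and M902.

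The other steps were described by single genes. Slc32a1, which loads glycine and GABA into vesicles, was 150 to 159 CPM in controls and 148 to 157 CPM in knockouts, or -0.01 ± 0.03 (SE) as a log2 fold change. Glra4, an X-linked alpha subunit, was 2.67 to 3.19 and 2.35 to 3.66 CPM. Slc12a5 (KCC2), the chloride extruder of mature neurons, had a log2 fold change of -0.02. All 8 further carriers of glycine had log2 fold changes above 0, as did 50.7% of all genes, and none passed the threshold. Slc6a20a, Slc7a10, Slc38a1 and Slc38a2 changed sign when single mice were left out. Of the 2 carriers at an unadjusted p under 0.05, Slc38a3 and Slc6a14, the latter rested on M909 alone (1.53 CPM, 0.0673 to 0.192 in the others). Dynll1, a dynein light chain that binds gephyrin, had a log2 fold change of 0.16 (adjusted p of 0.312), and Slc38a3, a glutamine carrier, of 0.12 (adjusted p of 0.342), both from edgeR's quasi-likelihood test.

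The genes whose log2 CPM tracked each member most closely over the 8 mice were listed as a description, since both groups and 1 library per mouse are shared by all points. For Slc6a9 these were Tmem106b (Pearson r of 0.969), Zcchc24 (0.952) and Snx18 (0.948). The closest gene to Slc6a5 was A830082N09Rik (0.955), to Glra1 Ralgps2 (0.977), to Glra2 Pkib (0.967) and to Glra3 Hs6st3 (0.964). For Glrb it was Plcl2 (0.996), and for Gphn Atf5 (0.960).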

How the data were processed

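Whole retinas were lysed and poly(A) RNA was sequenced as 150-base read pairs by the authors, who aligned reads with STAR to mm10 and counted unique reads per gene with HTSeq. RefSeq and Ensembl annotation are both named, and the strand setting is not given in the sources used here. The submitters' processing notes also name CASAVA 1.8.2 and edgeR. The deposited table holds counts per gene and mouse, which were used for tests, and the deposited FPKM, which equal counts per length and library total with 1 length per gene. Every gene in it has at least 5 counts in at least 4 mice. It also holds the authors' adjusted counts, a normalized signal per mouse, the authors' rank of genes by mean FPKM, which is a score, and p-values and log2 differences computed by the authors with edgeR, none of which was used.

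The groups follow the labels. Counts were filtered (filterByExpr), TMM-scaled and fitted with edgeR 4.0.16 in R 4.3.3 (quasi-likelihood test, no covariate, Benjamini-Hochberg adjustment over 16797 genes, threshold 0.05). Intervals are 95%. DESeq2 1.42.0, limma-voom (limma 3.58.1), the edgeR likelihood ratio test, other scalings and filters, and fits without single mice were alternatives. The script was tested on simulated data. The p-values set the difference between the groups against the spread between these mice. Sequences came from GENCODE M21, with MAFFT 7.526 for alignment and BLAST 2.17.0 for shared runs. All 7 members are named. Other glycine genes are named if among the 5 lowest p-values of their list, past the threshold, or defining a step, and the 3 genes most correlated with Slc6a9 and the first for the others are named. Some items of the lists are not reported here and were left out of their counts. Members and lists were chosen with earlier results of these data known. The shares of alpha subunits and the scalings of group overlap were added after seeing the data.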

Additional observations from a re-analysis of the deposited data

Results flagged for a closer look

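Of 72 groups of 4 mice examined for 1 value far from the other 3, 4 stood out, where chance gives 3.6. All 4 were mouse M909 of the knockouts. Slc6a14, an amino acid carrier, was 1.53 CPM in M909 and 0.125 to 0.192 CPM in the other knockouts. Slc38a3 was 642 CPM in M909 against 684 to 691, Dynll1 80.1 against 93.6 to 94.2, and Slc12a2, a chloride importer, 52.3 against 41.2 to 42.1 CPM. None of the 7 genes described above was among them.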

How the results depend on the processing

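No member passed the threshold in any of the 18 alternative fits. Genes past it numbered 11 in the whole table, 465 with DESeq2, 164 with the likelihood ratio test, and 5 to 35 leaving out single mice (35 without M833). They numbered 1 without M901 and M902, and 4 with a covariate that marked these 2 mice, which carried Xist. Both of these fits take the group difference from the other mice, so they are not separate checks. Of the pathway list, 2 passed with DESeq2. Counts per kb of GENCODE exons moved Slc6a9 to 52.9, Slc6a5 to 1.80, Glra2 to 5.63, Glra3 to 1.59, Glrb to 14.8 and Gphn to 17.0, because the lengths differ. The sign of Glra1 turned without M901 and M902 (-0.0028) and with the covariate that marked them (-0.00038). Its range leaving out single mice was -0.0154 to 0.0732. Slc38a1 turned likewise (-0.0042 and -0.0016, range -0.0324 to 0.0398). Ranges that crossed 0 were Glra4 -0.0017 to 0.20, Slc32a1 -0.0248 to 0.0082, Slc6a20a -0.15 to 0.47, Slc7a10 -0.22 to 0.33, Slc38a2 -0.0200 to 0.0556, Dynll2 -0.0362 to 0.0039 and Mocs3 -0.14 to 0.0028. The cause was not tested for these. Slc6a14 was 0.29 without M909. No paired analysis was possible because each library is a separate mouse and the labels link no control to a knockout. The members had 1869 counts or more in each library.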
